A study of Mus musculus with 6 samples.

Results

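Semaphorins, plexins and neuropilins were measured as a family of ligands, receptors and co-receptors in 6 mouse neurofibromas, which are benign growths of the sheath around peripheral nerves. Members were taken by symbol from the deposited count table. They were the 20 semaphorin genes (Sema, a digit and a letter), the 9 plexin genes (Plxn and a letter) and Nrp1 and Nrp2, which makes 31 of 24421 gene symbols. All 31 passed the filter on low counts and were among the 15604 genes tested. The antisense transcript Plxna4os1 and a gene listed as Nrp are not members.

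The 3 tumours of miR155KO_Nf1KO (MiRNC149, MiRNC640 and MiRNC670) came from mice that lacked both Nf1 in the Schwann cell lineage and the microRNA miR-155. The 3 tumours of Nf1KO (Nf803, Nf809 and Nf827) came from mice that lacked only Nf1. In both, the floxed Nf1 alleles were removed by DhhCre, which is active in Schwann cell precursors, the strain was C57BL/6J, and no drug was given. The stated purpose was to look for genes that miR-155 may target. The sources used here give no ages and do not say that each tumour came from a different mouse, so a p-value weighs only the spread among these 6 tumours, which may be partly technical. RNA came from the whole tumour, and which of its cells had lost or kept Nf1 was not measured.

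Totals ran from 13061129 to 16333181 reads per tumour. Mir155hg, the host transcript of miR-155, had 5, 3 and 1 reads in the miR155KO_Nf1KO tumours, against 57, 66 and 71 in the Nf1KO tumours. Sox10, a transcription factor that defines the Schwann cell lineage, had 277 to 333 CPM in miR155KO_Nf1KO and 215 to 263 CPM in Nf1KO. CPM are counts scaled to 1000000 reads of the library after TMM scaling. TMM sets a scaling factor for each library and does not correct for the mix of cells in a tumour. S100b, a calcium-binding protein of Schwann cells, had 294 to 400.3 CPM in miR155KO_Nf1KO and 119 to 137 CPM in Nf1KO, and was called higher by edgeR. It was the 1 of the 10 Schwann cell lineage markers reported here that was called, and the median log2 fold change of the 10 was 0.29. Nf1 itself had 309 to 390.2 CPM in miR155KO_Nf1KO and 292 to 358 CPM in Nf1KO, and Dhh 550.2 to 659 CPM in miR155KO_Nf1KO and 471 to 723 CPM in Nf1KO, with neither called. Skeletal muscle markers summed to 221 to 2402 CPM in miR155KO_Nf1KO and 6.76 to 2879 CPM in Nf1KO, with MiRNC670 and Nf809 the highest of their groups, and with Myh4, Tnnc2 and Acta1 at 0 in Nf827. Of the other lists read for the makeup of the tumours, edgeR called 0 of 11 skeletal muscle, 0 of 9 pericyte and 0 of 6 tested T cell markers (0, 0 and 5 at an unadjusted p under 0.05, and 0, 0 and 4 by DESeq2, of which 3 were lower) and 1 of 6 tested perineurium markers, which was lower. Pericyte markers summed to 226 to 521 CPM in miR155KO_Nf1KO and 348 to 541 CPM in Nf1KO. T cell markers summed to 177 to 282 CPM in miR155KO_Nf1KO and 140.0 to 219 CPM in Nf1KO. Most of that sum was Thy1, with 237, 171 and 273 CPM in miR155KO_Nf1KO and 130, 125 and 157 CPM in Nf1KO. The other 5 tested T cell markers had negative log2 fold changes, and the median of the 6 was -1.93. Perineurium markers summed to 526 to 894 CPM in miR155KO_Nf1KO and 984 to 1862 CPM in Nf1KO, with Krt23, which was not tested, at 0 in some tumours of both groups.

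Semaphorins are secreted or membrane-bound proteins that steer growing axons and also act on vessels and immune cells. They bind plexins, receptors whose intracellular domain acts on small GTPases. The secreted class 3 semaphorins mostly need a neuropilin as co-receptor, and neuropilins also bind vascular endothelial growth factor.

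Of the 31 members, 5 rose and 1 fell in miR155KO_Nf1KO by edgeR's quasi-likelihood test at a Benjamini-Hochberg adjusted p under 0.05 over all genes tested. The same threshold called 9.96% of all genes tested, 5.22% higher and 4.74% lower, against 19.4% of the members. The rises were those of the ligands Sema5a, Sema3g, Sema4g and Sema4b and of the receptor Plxnb1, and the fall was that of the receptor Plxnb2. The median log2 fold change of the members was 0.06, beside 0.01 for all genes tested, and the median size of the change, without its sign, was 0.50 against 0.35. CPM ranges of the groups did not overlap for 14 members, 9 with miR155KO_Nf1KO above and 5 with it below, which is 45.2% of members beside 32.6% of all genes tested. The members were chosen as a family, and the counts are a description of it, with no test of the family against other genes.

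DESeq2 called 8 members higher and 4 lower, the 6 above and also Plxna2, Plxnc1 and Sema6c higher and Sema4a, Sema4d and Sema7a lower. With edgeR, 0 members were called without MiRNC670, without Nf803 or without Nf827, although 9, 9 and 8 members had an unadjusted p under 0.05 in the higher direction and 5, 4 and 3 in the lower. DESeq2 called 6 higher and 1 lower in each of these fits. Without MiRNC640 edgeR called only Plxnc1, and without Nf809 it called 6 higher and 4 lower. Over all genes, edgeR called 1183 higher and 1059 lower without Nf809, against 815 and 739 with all tumours.

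**Figure D1:**
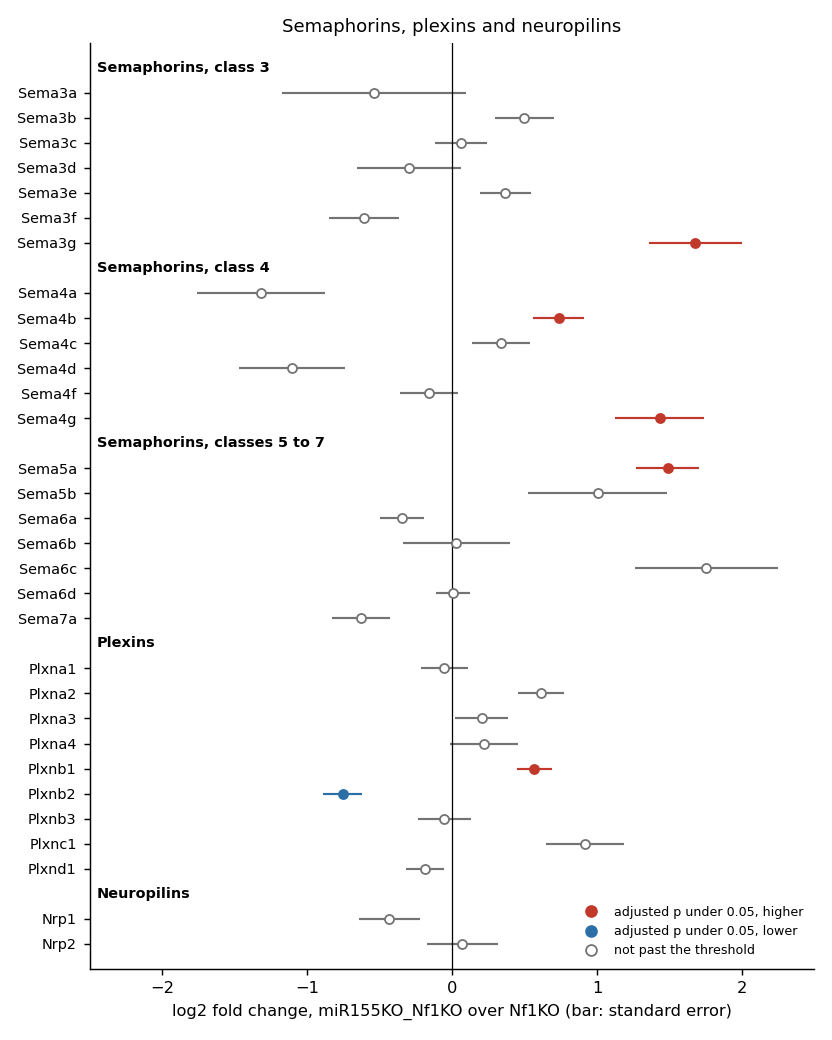
Log2 fold change of each of the 31 members, miR155KO_Nf1KO over Nf1KO, with its standard error from the edgeR fit to 3 tumours a group. Filled points passed an adjusted p of 0.05: Sema3g, Sema4b, Sema4g, Sema5a and Plxnb1 stand to the right of 0 and Plxnb2 to the left.

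Sema5a, a transmembrane semaphorin with thrombospondin repeats that binds plexin-B3 and class A plexins, had the highest level per length of exon among the called members. It had 547, 968 and 867 CPM in MiRNC149, MiRNC640 and MiRNC670, compared with 279, 308 and 262 CPM in Nf803, Nf809 and Nf827. Every miR155KO_Nf1KO tumour was above every Nf1KO tumour, and MiRNC149 was the lowest of its group. The means were 794 ± 220 CPM in miR155KO_Nf1KO and 283 ± 23.6 CPM in Nf1KO (SD, n = 3 each), a 2.8-fold rise (log2 fold change 1.49, SE 0.22, edgeR adjusted p = 0.0201). Sema5a made up 40.2% ± 5.24 of the summed semaphorin CPM in miR155KO_Nf1KO and 20.6% ± 2.36 in Nf1KO. These shares are not scaled by length and so favour long transcripts, and Sema5a has the longest annotated exons of any member, 18686 bases. Per length of exon Sema3b had a higher mean than Sema5a in both groups. The semaphorins summed to 1949 ± 322 CPM in miR155KO_Nf1KO and 1379 ± 43.0 CPM in Nf1KO, but without Sema5a to 1155 ± 108 and 1096 ± 65.5 CPM, which overlap. In RNA from whole tumours, fewer cells of a type and less RNA per cell cannot be told apart, and likewise more cells and more RNA.

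Sema5a was also the 1 member with an 8-base seed match to miR-155-5p, the main mature strand of the deleted microRNA. The sequences below show the microRNA, from RefSeq on GRCm38.p6, with its seed (bases 2 to 8) in capitals, and every match in the longest annotated 3′ untranslated region (UTR) of a member, from GENCODE M21 transcripts on GRCm38, with the match in capitals. The matches sought were AGCATTAA, which pairs with the seed and has an A opposite base 1, and its parts AGCATTA and GCATTAA, on the transcript strand only and counted as a part only outside the longer match.
mmu-miR-155-5p: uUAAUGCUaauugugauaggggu
Sema5a, 8-base match: cccctatcaagAGCATTAAaggtgtgtaaa
Sema5a, 7-base match: tagactgtgtcAGCATTAgatcatctggt
Nrp2, 7-base match ending in A: gtgcaaaagctGCATTAAacggcagaatc
Nrp2, 7-base match: gcatctctcatAGCATTAtctaaaagggc
Sema3f, 7-base match: gcctaggtggcAGCATTAtccagaactta
Sema4f, 7-base match: atgaacaataaAGCATTAcccaga

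The Sema5a windows lie at chr15:32690507-32690536 and chr15:32693386-32693414 on the plus strand, in the 6926-base 3′ UTR of the gene (ENSMUSG00000022231.10, chromosome 15, 32244810 to 32696341). The Nrp2 windows are at chr1:62797622-62797650 and chr1:62798585-62798613 on the plus strand, and are present in 1 of 6 annotated transcripts with a 3′ UTR. On the minus strand, the Sema3f window is at chr9:107682254-107682282, in 1 of 3 such transcripts, and the Sema4f window at chr6:82911885-82911908. In all, 1 of 31 members held the 8-base match (3.23%) beside 3.48% of the 14027 tested genes with an annotated 3′ UTR, and 4 of 31 held any match (12.9%) beside 14.2%. Among the 356 tested genes whose 3′ UTR was within 20% of the length of that of Sema5a, 14.9% held the 8-base match and 51.1% any match. The log2 fold changes of the 3 other genes with a match were 0.07 for Nrp2, -0.61 for Sema3f and -0.16 for Sema4f, none of them called, whereas Sema3g, Sema4g, Sema4b, Plxnb1 and Plxnb2 were called and held no match in these letters. A match is a description of the sequence and was not tested as a site.

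Of the 7 secreted class 3 semaphorins 1 rose, and the other 6 were not called. Sema3g, a neuropilin-2 ligand known from vessels and fat, had 11.5, 18.4 and 19.2 CPM in MiRNC149, MiRNC640 and MiRNC670, compared with 3.99, 6.99 and 4.28 CPM in Nf803, Nf809 and Nf827. The groups did not overlap, and Nf809 came nearest to the miR155KO_Nf1KO range. The rise was 3.2-fold (log2 fold change 1.68, SE 0.32, edgeR adjusted p = 0.0268), with means of 16.3 ± 4.24 CPM in miR155KO_Nf1KO and 5.09 ± 1.65 CPM in Nf1KO. Endothelial markers, which include Pecam1 and Cdh5, summed to 224 to 400 CPM in miR155KO_Nf1KO and 229.7 to 325 CPM in Nf1KO, with 0 of 12 called by edgeR (3 at an unadjusted p under 0.05, and 1 by DESeq2). Adipocyte markers summed to 190.6, 4240.4 and 1071 CPM in miR155KO_Nf1KO and 622, 142.8 and 618 CPM in Nf1KO, with 0 of 9 called by edgeR or DESeq2 (0 at an unadjusted p under 0.05) and Lep at 0 in Nf809. Their part in the Sema3g values was not tested.

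Sema3b, a neuropilin ligand, had 229.7, 343 and 222 CPM in the miR155KO_Nf1KO tumours, against 201, 156 and 206 CPM in the Nf1KO tumours. The ranges lay apart by a narrow gap, and the log2 fold change of 0.50 (SE 0.20) did not pass (edgeR adjusted p = 0.169). Per length of exon, Sema3b was the member with the highest mean level in both groups, 55.5 ± 14.2 CPM per kilobase in miR155KO_Nf1KO and 39.2 ± 5.78 in Nf1KO. Sema3f, which repels axons through neuropilin-2, had 8.88, 6.75 and 6.65 CPM in miR155KO_Nf1KO and 9.15, 12.7 and 12.1 CPM in Nf1KO. All 3 of its miR155KO_Nf1KO values were lower, but the difference did not pass (log2 fold change -0.61, SE 0.24, edgeR adjusted p = 0.163).

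Sema3e, which binds plexin-D1 without a neuropilin, had 105, 70.6 and 78.7 CPM in miR155KO_Nf1KO and 67.0, 58.7 and 71.5 CPM in Nf1KO, where the ranges overlapped (log2 fold change 0.37, SE 0.18, edgeR adjusted p = 0.24). Its receptor gene Plxnd1 had 60.7 to 75.1 CPM in miR155KO_Nf1KO and 76.7 to 82.2 CPM in Nf1KO, a log2 fold change of -0.19 that did not pass (edgeR adjusted p = 0.413). The remaining class 3 genes were Sema3c, Sema3d and Sema3a, the classical repellent of sensory axons, with log2 fold changes of 0.06, -0.30 and -0.54, and none was called. Sema3a was the lowest member, with 12 to 44 reads per tumour, and its SE of 0.63 was larger than its change.

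Of the 6 transmembrane class 4 semaphorins 2 rose, and the other 4 were not called by edgeR with all tumours. Sema4g, a ligand of plexin-B2, had 15.6, 35.3 and 26.2 CPM in MiRNC149, MiRNC640 and MiRNC670, compared with 10.6, 8.47 and 9.51 CPM in Nf803, Nf809 and Nf827. The groups did not overlap, with MiRNC149 again nearest to Nf1KO, and the rise was 2.7-fold (log2 fold change 1.43, SE 0.31, edgeR adjusted p = 0.0335). Sema4b had 44.7, 49.7 and 40.5 CPM in miR155KO_Nf1KO and 28.8, 30.2 and 22.0 CPM in Nf1KO. Its groups also lay apart, and the rise was 1.67-fold (log2 fold change 0.74, SE 0.18, edgeR adjusted p = 0.0439). With upper quartile scaling Sema4b was not called (log2 fold change 0.70, adjusted p = 0.0534).

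Sema4d, or CD100, is carried by leukocytes and by myelinating glia of the central nervous system, and binds plexin-B1 and, in the mouse immune system, CD72. It had 34.0, 21.3 and 28.6 CPM in the miR155KO_Nf1KO tumours, against 57.8, 32.5 and 90.1 CPM in the Nf1KO tumours. The groups overlapped through Nf809, which lay below MiRNC149. The log2 fold change of -1.10 (SE 0.37) did not pass with all tumours (edgeR adjusted p = 0.105) and was -1.40 with an adjusted p of 0.0159 without Nf809. Without Nf827 it was -0.69 (edgeR adjusted p = 0.278). Sema4a, a semaphorin of dendritic cells and T cell priming named after its values were seen, behaved alike, with 8.05, 9.19 and 6.73 CPM in miR155KO_Nf1KO and 18.1, 9.03 and 32.7 CPM in Nf1KO (log2 fold change -1.32, SE 0.44, edgeR adjusted p = 0.106), and with -1.66 and an adjusted p of 0.0166 without Nf809. Without Nf827 the change of Sema4a was -0.76 (edgeR adjusted p = 0.289). Sema4d and Sema4a each passed in 1 of 6 edgeR fits that left out 1 tumour.

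In the same tumours the dendritic cell markers summed to 378, 226 and 264 CPM in miR155KO_Nf1KO and to 1580, 747 and 2909 CPM in Nf1KO, so Nf809 was the lowest Nf1KO tumour for the markers as it was for Sema4a and Sema4d. Of 10 tested dendritic cell markers 7 fell, with Batf3, which was not tested, at 0 in MiRNC670 and Ccr7 at 0 in MiRNC640. Of 12 macrophage markers 6 fell, with sums of 573 to 1209 CPM in miR155KO_Nf1KO and 1539 to 2645 CPM in Nf1KO and none at 0. The part of these cells in the Sema4a and Sema4d values was not tested.

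Sema4f, a semaphorin described in human Schwann cells and their contact with axons, had 52.9, 37.4 and 47.5 CPM in miR155KO_Nf1KO and 42.0, 50.6 and 61.4 CPM in Nf1KO, with overlapping ranges (log2 fold change -0.16, SE 0.20, edgeR adjusted p = 0.663). Sema4c, another ligand of plexin-B2, was not called either (log2 fold change 0.34, SE 0.20).

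**Figure D2:**
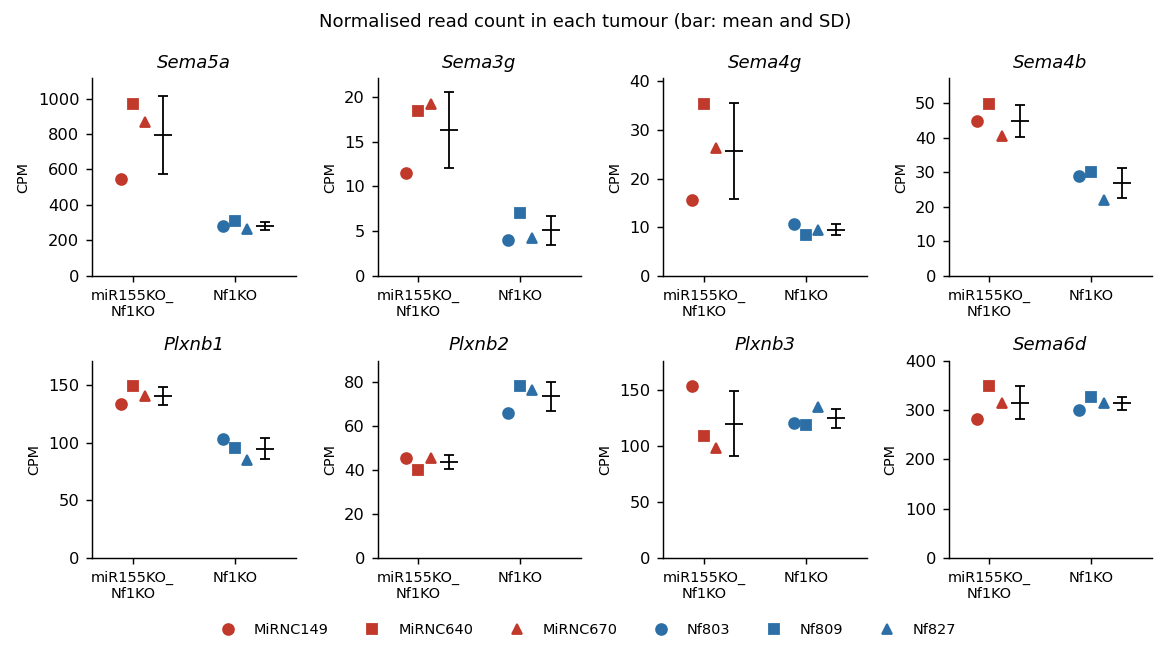
CPM of the 6 called members and of Plxnb3 and Sema6d in each tumour, with miR155KO_Nf1KO on the left and Nf1KO on the right of each panel and the mean and SD beside the points (n = 3 each). The groups lie apart in the panels of the called genes, as for Plxnb2 with 39.9 to 45.5 CPM in miR155KO_Nf1KO and 65.9 to 77.9 CPM in Nf1KO, and overlap for Plxnb3 and Sema6d.

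Among the semaphorins of classes 5 to 7, Sema5a was the 1 of 7 that passed. Sema6d, a ligand of plexin-A1, had 282, 349 and 314 CPM in the miR155KO_Nf1KO tumours, against 301, 326 and 314 CPM in the Nf1KO tumours. The groups overlapped throughout, with means of 315 ± 33.3 CPM in miR155KO_Nf1KO and 314 ± 12.9 CPM in Nf1KO. Per length of exon Sema6d was the third highest member in miR155KO_Nf1KO, at 29.8 ± 3.15 CPM per kilobase, and the second highest in Nf1KO, at 29.7 ± 1.22. Sema6c had 17.2, 36.5 and 26.5 CPM in miR155KO_Nf1KO and 7.69, 12.7 and 3.28 CPM in Nf1KO. Its log2 fold change of 1.75 (SE 0.49) was the largest of any member and the ranges did not overlap, but the spread within groups was wide (edgeR adjusted p = 0.0668). It was 2.30 with an adjusted p of 0.0244 without Nf809. This was the 1 of 6 edgeR fits with 1 tumour left out in which it passed. Across those fits it ranged from 1.38 to 2.30, with an adjusted p of up to 0.193.

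Sema7a, a membrane-anchored semaphorin that binds plexin-C1 and integrin beta1, is named after its values were seen. It had 39.6, 41.7 and 35.6 CPM in the miR155KO_Nf1KO tumours, against 73.9, 45.3 and 61.5 CPM in the Nf1KO tumours. The ranges lay apart, but the log2 fold change of -0.63 (SE 0.20) did not pass (edgeR adjusted p = 0.0933), and was -0.79 with an adjusted p of 0.0252 without Nf809. Without Nf803 it was -0.48 (edgeR adjusted p = 0.254), and it passed in 1 of 6 fits with 1 tumour left out. Sema6a, a ligand of plexins A2 and A4, had 107 to 142 CPM in miR155KO_Nf1KO and 148.5 to 183 CPM in Nf1KO (log2 fold change -0.35, SE 0.15, edgeR adjusted p = 0.194). Sema5b and Sema6b were low, between 2.77 and 16.6 CPM in any tumour, and were not called (edgeR adjusted p = 0.233 and 0.972).

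Of the class B plexins, Plxnb1 rose and Plxnb2 fell. Plxnb1, the receptor of Sema4d, had 133, 149.1 and 140.3 CPM in MiRNC149, MiRNC640 and MiRNC670, compared with 104, 95.9 and 85.4 CPM in Nf803, Nf809 and Nf827. The groups did not overlap, and the rise was 1.48-fold (log2 fold change 0.57, SE 0.12, edgeR adjusted p = 0.0335). Plxnb2, a receptor of Sema4c and Sema4g that is widely expressed, had 45.2, 39.9 and 45.5 CPM in miR155KO_Nf1KO and 65.9, 77.9 and 76.1 CPM in Nf1KO. Its groups lay apart in the other direction, with means of 43.5 ± 3.17 CPM in miR155KO_Nf1KO and 73.3 ± 6.46 CPM in Nf1KO (log2 fold change -0.75, SE 0.14, edgeR adjusted p = 0.0254).

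The ratio of Plxnb1 to Plxnb2 CPM was 2.95, 3.74 and 3.09 in the miR155KO_Nf1KO tumours, against 1.57, 1.23 and 1.12 in the Nf1KO tumours. Plxnb3, a receptor of Sema5a, had 153, 108 and 98.0 CPM in miR155KO_Nf1KO and 120.1, 119 and 134 CPM in Nf1KO (log2 fold change -0.05, SE 0.18, edgeR adjusted p = 0.889). Sema5a rose while the CPM of the plexin-B3 gene overlapped between groups. Sema4g rose while the gene of its receptor plexin-B2 fell. Fibroblast markers moved the way of Plxnb2, with 5 of 12 lower and sums of 5431 to 6865 CPM in miR155KO_Nf1KO and 11848 to 12563 CPM in Nf1KO. Of those 12 markers, 2 had a positive log2 fold change. Macrophage markers, with 6 of 12 lower, and dendritic cell markers, with 7 of 10 tested lower, moved that way too. The part of these cells in the fall of Plxnb2 was not tested.

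None of the class A plexins, the main partners of neuropilins, passed by edgeR with all 6 tumours (1 of 4 at an unadjusted p under 0.05, and 1 of 4 by DESeq2). Plxna2 had 114, 145 and 152 CPM in miR155KO_Nf1KO and 89.9, 100.2 and 77.3 CPM in Nf1KO. The ranges did not overlap, and its log2 fold change of 0.62 (SE 0.16) was just short of the threshold (edgeR adjusted p = 0.0546). It passed without MiRNC149 (log2 fold change 0.74, adjusted p = 0.0357) and without Nf809 (0.72 on that scale, adjusted p = 0.0396), and also with total counts (0.59, adjusted p = 0.0499) and with a filter of 1 CPM in 3 tumours (0.63, adjusted p = 0.0475). Without MiRNC670 it was 0.52 (edgeR adjusted p = 0.194), and it passed in 2 of 6 fits with 1 tumour left out.

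Plxna4, a receptor of sensory axons for Sema3a and Sema6a, had 128, 89.0 and 169.8 CPM in miR155KO_Nf1KO and 95.2, 121 and 116 CPM in Nf1KO. The groups overlapped, with both the lowest and the highest tumour in miR155KO_Nf1KO (log2 fold change 0.22, SE 0.23, edgeR adjusted p = 0.605). Plxna3 had 17.8, 17.8 and 22.9 CPM in miR155KO_Nf1KO and 16.3, 15.4 and 19.0 CPM in Nf1KO, and its ranges overlapped (log2 fold change 0.20, SE 0.18, edgeR adjusted p = 0.537). The ranges of Plxna1 overlapped too (log2 fold change -0.05, SE 0.16). Plxnc1, the receptor of Sema7a named after its values were seen, had 146, 84.8 and 183 CPM in miR155KO_Nf1KO and 65.3, 80.4 and 73.0 CPM in Nf1KO. MiRNC640 lay just above the Nf1KO range, and the log2 fold change of 0.92 (SE 0.27) did not pass with all tumours (edgeR adjusted p = 0.073), but was 1.17 with an adjusted p of 0.047 without MiRNC640. Without MiRNC670 it was 0.63 (edgeR adjusted p = 0.214), and it passed in 1 of 6 fits with 1 tumour left out.

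Neither neuropilin was called by edgeR or DESeq2, and neither had an unadjusted p under 0.05. Nrp1, which binds Sema3a and vascular endothelial growth factor A, had 87.6, 145 and 126 CPM in miR155KO_Nf1KO and 165, 134 and 185 CPM in Nf1KO (log2 fold change -0.43, SE 0.21, edgeR adjusted p = 0.241). Nrp2, which binds Sema3f and Sema3g, had 164, 259.9 and 309 CPM in miR155KO_Nf1KO and 236, 270.1 and 190.4 CPM in Nf1KO (log2 fold change 0.07, SE 0.24, edgeR adjusted p = 0.889). For both, the ranges overlapped and MiRNC149 was the lowest of all 6 tumours. Sema3g rose with no called change in the gene of its co-receptor.

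**Figure D3:**
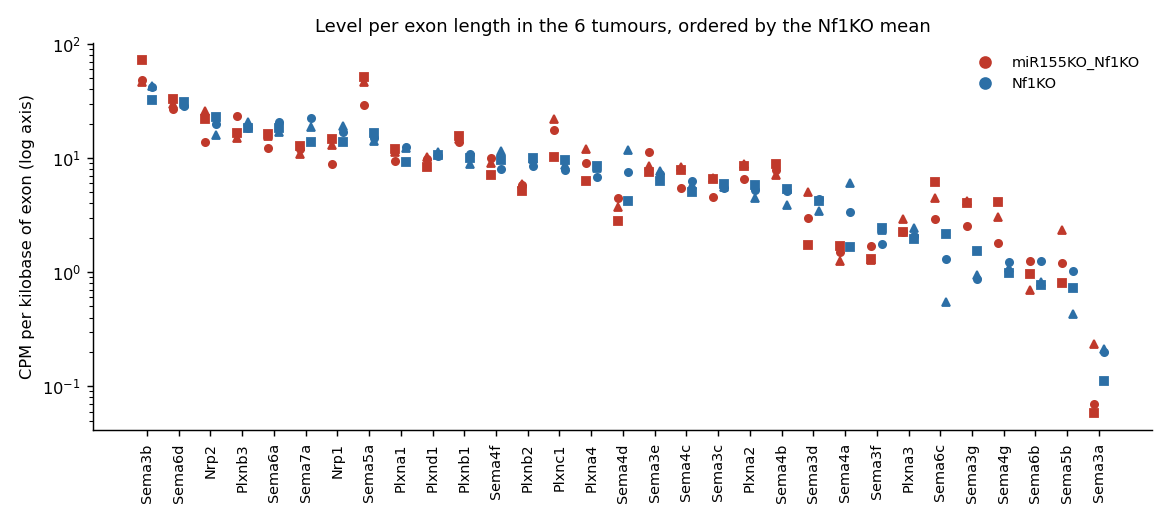
Level of each member per length of exon, in CPM per kilobase on a log axis, in the 3 miR155KO_Nf1KO tumours (left of each position) and the 3 Nf1KO tumours (right), ordered by the Nf1KO mean. Sema3b stands first and Sema3a last in both groups, and the Sema5a points of miR155KO_Nf1KO stand above their neighbours.

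Per length of exon the highest mean was 459 times the lowest in miR155KO_Nf1KO and 225 times in Nf1KO. Sema5a had the second highest mean in miR155KO_Nf1KO, at 42.5 ± 11.8 CPM per kilobase, and ranked 8 of 31 in Nf1KO, at 15.2 ± 1.26. In Nf1KO the next after Sema3b and Sema6d were Nrp2 (19.6 ± 3.38), Plxnb3 (19.1 ± 1.32), Sema6a (18.7 ± 1.97), Sema7a (18.3 ± 4.36) and Nrp1 (16.5 ± 2.60). Differences among these genes were not tested. Plxnb2 ranked 20 in miR155KO_Nf1KO (5.64 ± 0.410) and 13 in Nf1KO (9.49 ± 0.836). Sema3a was last in both (0.121 ± 0.0984 in miR155KO_Nf1KO and 0.174 ± 0.0548 in Nf1KO). Exon length is the union of annotated exons, so genes with long, little used exons come out too low.

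Most markers of myelinating Schwann cells and of neurons rose in miR155KO_Nf1KO. The 11 markers of myelinating Schwann cells summed to 10522.5, 22053 and 14756 CPM in MiRNC149, MiRNC640 and MiRNC670, compared with 6589, 5657 and 5836 CPM in Nf803, Nf809 and Nf827, and 9 of the 11 rose. The 12 neuron markers summed to 6413, 5543 and 8789 CPM in miR155KO_Nf1KO and 1455, 2689 and 1377 CPM in Nf1KO, and 10 of the 12 rose. No marker of either list was at 0 in any tumour. Within miR155KO_Nf1KO, Sema5a, Sema4g and Sema6c were lowest in MiRNC149 and highest in MiRNC640, as the myelin markers were, while Plxnc1, Plxna4 and Sema5b were lowest in MiRNC640 and highest in MiRNC670, as the neuron markers were. These members were picked after their values were seen. The first order was also that of Plxnb1, which rose, and of Plxna1, Sema6a, Sema6d and Nrp1, which were not called. The second was also that of Plxnb2, which fell, and of Plxnd1, Sema3a and Sema3d, which were not called. Within Nf1KO, Sema5a and Sema6c were highest in Nf809, where the myelin markers were lowest. The share of all genes with either order within miR155KO_Nf1KO was not counted.

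In both groups at once, the order of the tumours by myelin markers was shared by 2 of 31 members, Sema4g and Plxna1 (6.45%, beside 3.88% of all genes tested). The order by neuron markers was shared by 0 of 31 members, beside 5.21% of genes tested, and that by dendritic cell markers by 2, Sema4d and Sema3e (6.45%, beside 4.45%). The adipocyte markers had the same order as the myelin markers, the perineurium markers that of the neuron markers, and the macrophage markers that of the dendritic cell markers. The skeletal muscle and pericyte markers had an order of their own, which 2 of 31 members shared, Nrp2 and Plxna2 (6.45%, beside 3.685% of genes tested). The part of myelin and nerve content in the member values was not tested.

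**Figure D4:**
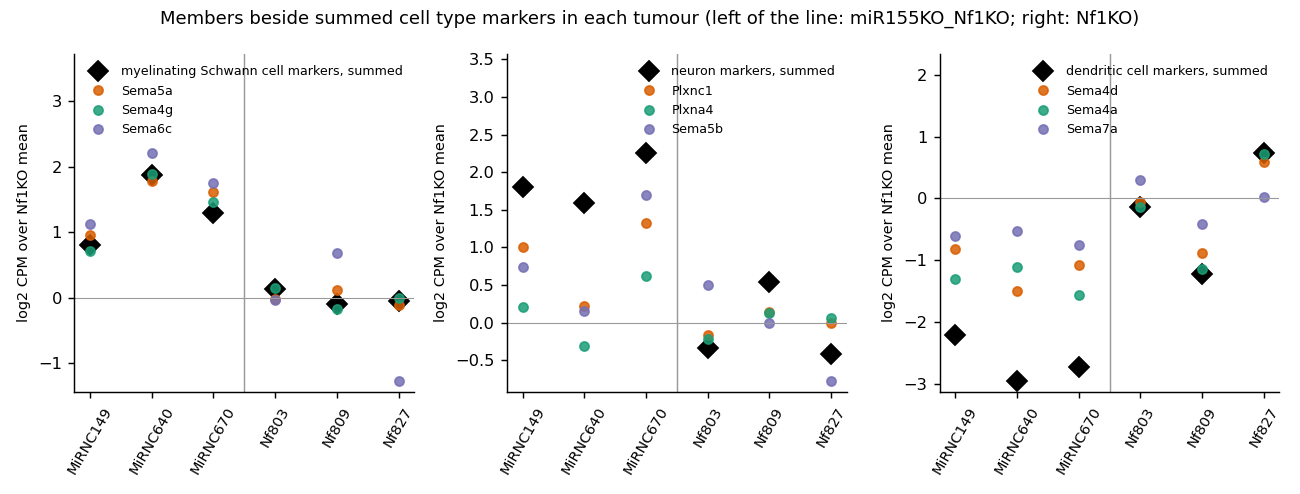
Log2 ratio of CPM to the Nf1KO mean in each tumour, for the summed markers of myelinating Schwann cells, neurons and dendritic cells (diamonds) and for 3 members beside each (circles), with the miR155KO_Nf1KO tumours left of the vertical line and Nf1KO right of it. Nf809 is the lowest Nf1KO tumour for the dendritic cell markers (747 CPM), for Sema4d (32.5 CPM) and for Sema4a (9.03 CPM). The members beside the myelinating Schwann cell and neuron markers were picked after their values were seen.

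A list of 58 genes that carry or modify semaphorin signals was read beside the members, and 56 of them were tested. Of these, 2 rose and 7 fell by edgeR over all genes tested, which is 3.57% higher and 12.5% lower beside 5.22% and 4.74% of all genes, with a median log2 fold change of -0.01, and DESeq2 called 6 higher and 10 lower. The rises were in Nrcam, a cell adhesion co-receptor of neuropilin-2, with 102 ± 10.9 CPM in miR155KO_Nf1KO and 63.4 ± 1.67 CPM in Nf1KO (log2 fold change 0.69, SE 0.13, adjusted p = 0.0258), and in Dpysl5, a collapsin response mediator of neurons, with 71.7 ± 15.8 CPM in miR155KO_Nf1KO and 23.0 ± 11.3 CPM in Nf1KO (log2 fold change 1.64, SE 0.35, adjusted p = 0.0335). In the same tumours 10 of 12 neuron and 9 of 11 myelinating Schwann cell markers rose. The part of nerve and myelin content in the Nrcam and Dpysl5 values was not tested.

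Cd72, a receptor of Sema4d on B cells, fell to 1.47 ± 0.520 CPM in miR155KO_Nf1KO, against 21.7 ± 15.5 CPM in Nf1KO (log2 fold change -3.87, SE 0.63). Tyrobp, a myeloid adaptor that joins plexin-A1 to the Sema6d signal, had 21.2, 8.31 and 9.50 CPM in miR155KO_Nf1KO and 39.5, 31.2 and 64.3 CPM in Nf1KO (log2 fold change -1.79, SE 0.43). In the same tumours 7 of 10 dendritic cell and 6 of 12 macrophage markers fell, and the part of these cells in the Cd72 and Tyrobp values was not tested. Fes, a tyrosine kinase of myeloid cells that binds plexin-A1, had 3.55 ± 0.435 CPM in miR155KO_Nf1KO and 15.3 ± 5.79 CPM in Nf1KO (log2 fold change -2.11, SE 0.32), and the part of those cells in it was not tested either. Sh3bp1, an inactivator of Rac downstream of Sema3e, had 1.73 ± 0.101 CPM in miR155KO_Nf1KO and 7.79 ± 2.06 CPM in Nf1KO (log2 fold change -2.17, SE 0.33).

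The other 3 genes that fell were Itgb1, Mical2 and Nck2. Itgb1, the integrin receptor of Sema7a, had 337 ± 14.5 CPM in miR155KO_Nf1KO and 473 ± 48.9 CPM in Nf1KO (log2 fold change -0.49, SE 0.12). Mical2, an actin-oxidising enzyme of the family that binds plexins, had 75.6, 41.6 and 56.7 CPM in miR155KO_Nf1KO and 107, 166 and 141 CPM in Nf1KO (log2 fold change -1.25, SE 0.25). The adaptor gene Nck2 had 9.32 ± 1.25 CPM in miR155KO_Nf1KO and 18.6 ± 4.85 CPM in Nf1KO (log2 fold change -0.99, SE 0.24). The edgeR adjusted p was near the threshold for Itgb1 (0.0431), Tyrobp (0.0435) and Nck2 (0.0446). In the same tumours 5 of 12 fibroblast markers fell, besides the macrophage and dendritic cell markers. The part of these cells in the Itgb1, Mical2, Nck2 and Sh3bp1 values was not tested. The collapsin response genes Dpysl2, Dpysl3, Dpysl4 and Crmp1, the GTPase genes Rac1 and Rhoa, and the plexin-B effectors Arhgef11 and Arhgef12 were not called. Rnd1 and Timd2 had too few reads to be tested.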

How the data were processed

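RNA-seq counts of 6 whole tumours, 3 of miR155KO_Nf1KO and 3 of Nf1KO by the sample titles, were deposited as whole reads for each gene symbol. The tools named in the submitters' processing notes are featureCounts 1.5.2 and HISAT2 2.0.5, with the build mm10. The sources used here do not state the annotation, the strand setting or how reads with several matches were treated, so paralogs and antisense genes such as Plxna4os1 may share reads.

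Counts were tested with edgeR 4.0.16 in R 4.3.3 (quasi-likelihood, two-sided, TMM scaling, filterByExpr with a minimum count of 10 and a total of 15), with a term for the group alone, and adjusted over the 15604 genes that passed of 24421. SE is the change divided by the root of F. CPM are counts per 1000000 reads of the scaled library, and 3′ UTRs and lengths are from GENCODE M21. DESeq2 1.42.0 and limma 3.58.1 (voom with quality weights) were alternatives, and the scripts were tested on simulated data. Totals were 13061129 to 16333181 reads per tumour, and the share of counting error in the spread of each member was not measured. On average over genes, replicate pairs differed by at least 22.1 times Poisson variance, more than sampling noise, so each library was counted as 1 sample.

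Members and lists were chosen with earlier results of these data known. Described in full are called members and, per class, the 2 with the highest CPM and the 2 with the smallest p, and of the signalling list the called genes. 1 lineage marker is not reported here.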

Additional observations from a re-analysis of the deposited data

How the results depend on the processing

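The 6 called members kept their direction under every alternative run, and calls depended on the tool and the tumours. DESeq2 called 8 members higher and 4 lower, 6 of the signalling list higher, and 1489 genes higher and 1473 lower in all. Voom with quality weights called 8 and 3 members, 7 of the signalling list higher, and 1485 and 1190 genes. Without MiRNC670 and Nf809 together, edgeR called 1 member higher (Sema3g) and 0 lower (8 and 6 at an unadjusted p under 0.05), 1 of the signalling list higher and 3 lower. DESeq2 called 5 and 4 members there, and 1167 genes lower. Other scalings and filters moved no count of calls by more than 1.5 times, but Sema4b lost its call with upper quartile scaling (adjusted p = 0.0534) and Plxna2 gained one with total counts and with the 1 CPM filter, and no scaling moved the median of all genes by over 0.1 on the log2 scale.

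With 1 tumour left out, edgeR called 0 to 6 members higher and 0 to 4 lower, 0 to 1183 genes higher and 0 to 1059 lower, and 0 to 4 of the signalling list higher and 0 to 9 lower. The counts were 0 without MiRNC670, Nf803 or Nf827. DESeq2, added after seeing the data, called 6 to 8 and 1 to 4 members, 915 to 1749 genes higher (1640 without MiRNC149) and 920 to 1600 lower (1565 without MiRNC149), and 2 to 7 and 5 to 11 of the list. In these fits the highest adjusted p by edgeR and by DESeq2 was 0.0874 and 8.74e-05 for Sema5a, 0.108 and 0.00606 for Sema3g, 0.124 and 0.0121 for Sema4g, 0.127 and 0.0499 for Sema4b, 0.125 and 0.0286 for Plxnb1, and 0.0924 and 0.00299 for Plxnb2. The cause was not tested, and each such fit has fewer samples.

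Members near 0 changed sign. Sema6d had a log2 fold change of 0.00 and was -0.00132 with DESeq2 size factors, -0.0325 with upper quartile scaling, -0.0203 with total counts and -0.00138 by DESeq2. Sema6b was -0.00496 with upper quartile scaling and -0.22 by voom. Without MiRNC670 and Nf809, Nrp2 was -0.0327, Plxna3 -0.0195, Plxnb3 0.00501 and Sema3c -0.0235. With 1 tumour left out, the ranges were -0.15 to 0.30 for Nrp2, -0.17 to 0.0507 for Plxna1, -0.0531 to 0.43 for Plxna4, -0.26 to 0.0436 for Plxnb3, -0.0485 to 0.23 for Sema3c, -0.79 to 0.00433 for Sema3d, -0.18 to 0.25 for Sema6b and -0.0744 to 0.0870 for Sema6d. No paired analysis was possible because the groups share no replicate number.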
